A study of Sus scrofa with 16 samples.

Results

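The subtelomeric regions described here are the outer 5 Mb at each end of pig chromosomes 1 to 12, which makes 24 ends and 120 Mb. A methylation peak was counted at an end when its midpoint lay in the first 5 Mb of the chromosome, or within 5 Mb of the largest peak end that any list gives for that chromosome. By this rule 74289 of 1159046 peaks were at the ends: 18458 of 280678 in Tibetan highland pigs (TH), 18187 of 287224 in Yorkshire highland pigs (YH), 17151 of 259066 in Tibetan lowland pigs (TL) and 20493 of 332078 in Yorkshire lowland pigs (YL). The peaks with midpoints elsewhere on chromosomes 1 to 12, 692633 in all over 1582 Mb, are called the rest. The far ends are set by the last peak and not by the assembly, so sequence beyond the last peak was not counted.

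The study compared DNA methylation in the hearts of Tibetan pigs, which are native to the plateau, and Yorkshire pigs, a lowland breed, at a highland and a lowland site. Each of the 4 groups held 4 males aged 6 months, 16 animals in all, which the study's methods describe as castrated boars conceived, born and raised at their site. Pigs kept outside the usual elevation of their breed, YH and TL, were locally bred offspring of relocated stock. Feeding was the same within an elevation, so site, feed and elevation cannot be told apart.

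Methylation was measured by MeDIP-seq, in which an antibody against 5-methylcytosine pulls down methylated fragments of sheared DNA before sequencing. A peak is a stretch where the tags, the sequenced reads, pile up above their surroundings, and the antibody takes up more DNA where methylated CpG sites lie close together. Subtelomeres, the stretches next to the telomeric repeats, are in mammals often rich in GC, CpG sites and genes, recombine often, and carry repeats and duplicated segments that are hard to assemble. Pig chromosomes 1 to 12 have 2 arms, so both of their ends are chromosome tips away from the centromere, whereas chromosomes 13 to 18 are acrocentric, with the centromere close to 1 tip.

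Each group has 1 deposited list, with 259066 to 332078 peaks over the genome. At most 4 peaks of a list covered the same base, and each group has 4 animals, so a list was read as the peak sets of its 4 animals put together without their names. The files do not state this, and every count of animals given here rests on that reading. The spread between animals is unknown for densities, tags and fold enrichments, so ends and rest were compared within a list, and the intervals given are 95% Wilson intervals that cover counting error only. Tissue identity cannot be checked with these values, since the lists hold no expression.

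Peaks were denser at the chromosome ends than in the rest in every list. In TH the ends held 154 peaks per Mb and the rest 106, a ratio of 1.46. In YH the densities were 152 and 108 peaks per Mb, a ratio of 1.40. The TL densities were 143 and 98.7 peaks per Mb, a ratio of 1.45, and those of YL 171 and 126 peaks per Mb, a ratio of 1.36. The 4 lists thus differed more in their level than in the contrast between ends and rest.

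The ends make up 7.05% of the length of chromosomes 1 to 12. They held 9.95% of the TH peaks of these chromosomes (95% interval 9.81% to 10.1%), 9.62% of the YH peaks (9.49% to 9.75%), 9.90% of the TL peaks (9.76% to 10.04%) and 9.36% of the YL peaks (9.23% to 9.48%). All 4 intervals lie above the share of length. The share was larger in the Tibetan than in the Yorkshire list at both elevations. With 1 list per group the intervals leave out the spread between animals, so a difference between the breeds was not tested. When each list was cut to its 259066 peaks of most tags, the ratio of densities kept that order only in the highland. Tibetan and Yorkshire ratios were then 1.55 and 1.52 in the highland, and 1.45 and 1.62 in the lowland. This cut left unequal floors: the fewest tags kept were 14 (TH), 16 (YH), 11 (TL) and 19 (YL). With a common floor of 20 tags the Tibetan ratio was higher at both elevations, 1.90 against 1.73 (highland) and 1.97 against 1.64 (lowland). Among peaks at or above the median fold enrichment of their list it was lower at both, 0.732 against 0.741 and 0.700 against 0.729.

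The methylated stretches at the ends were also wider. Bases under at least 1 peak made up 14.3% of the ends and 7.10% of the rest in TH, 12.8% and 6.98% for YH, 11.7% and 6.23% for TL, and 14.8% and 8.17% for YL. These shares give ratios from 1.81 in YL to 2.01 in TH, above the ratios of peak number. Merging the overlapping peaks of a list left 74.6 regions per Mb at the ends and 56.7 in the rest in TH, and the ratio of merged regions was 1.20 to 1.32 over the 4 lists. The contrast was thus smaller in merged regions than in peaks, and larger in covered bases.

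The contrast turned with the fold enrichment of the peaks, the ratio of tags in the peak to the background that the peak caller expected there. Among peaks at or above the median fold enrichment of their list, the ends were sparser than the rest, with ratios of 0.732, 0.741, 0.700 and 0.729 in the TH, YH, TL and YL lists. Among peaks with at least 20 tags the ratio rose to 1.64 to 1.97. The surplus at the ends was therefore found among peaks with many tags and, read separately, among peaks of modest fold enrichment.

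That pattern was graded by class. Peaks of under 20 tags were 0.410 to 0.456 times as dense at the ends as in the rest, and peaks of 20 to 39 tags 0.806 to 1.06 times. Peaks of 40 to 79 tags were 1.98 to 2.93 times as dense, and peaks of 80 or more tags 4.56 to 6.54 times. By fold enrichment the order ran the other way up to 15: peaks under 5 were 3.39 to 4.53 times as dense at the ends, peaks of 5 to under 10 were 1.15 to 1.47 times, and peaks of 10 to under 15 were 0.626 to 0.680 times. At 15 or more the lists parted, with 0.761 in TH (95% interval 0.683 to 0.848) and 1.14, 1.08 and 1.04 in YH, TL and YL, whose intervals include 1.

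**Figure D1:**
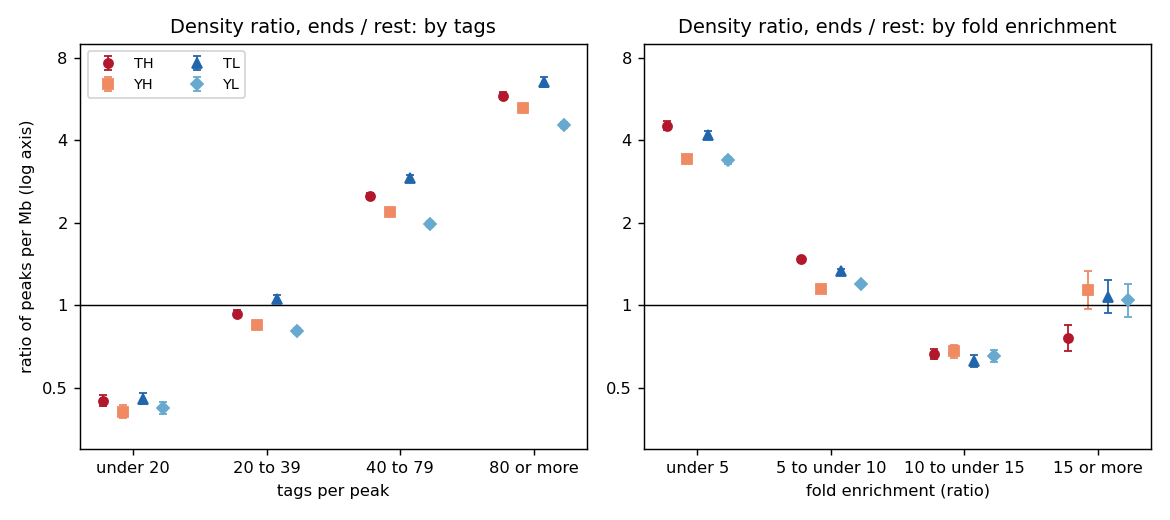
Ratio of peaks per Mb at the ends to peaks per Mb in the rest of chromosomes 1 to 12 (log axis), for classes of tags per peak (left) and of fold enrichment (right); points are the 4 lists and bars are 95% Wilson intervals for counting error. The ratio climbs from 0.410 to 0.456 under 20 tags to 4.56 to 6.54 at 80 or more tags, and falls from 3.39 to 4.53 under a fold enrichment of 5 to 0.626 to 0.680 between 10 and 15.

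Peaks at the ends held close to double the tags of peaks in the rest. The median was 52 tags at the ends and 26 in the rest in TH, 53 and 28 for YH, 46 and 24 for TL, and 55 and 29 for YL. The quartiles in TH were 31 and 84 tags at the ends and 18 and 42 in the rest, so the middle ranges overlapped. Peaks at the ends were longer as well, with medians of 1457 and 985 bp in TH, 1509 and 1017 bp for YH, 1375 and 933 bp for TL, and 1503 and 1036 bp for YL. Median tags per kb of peak were 1.22 to 1.28 times higher at the ends, but close among peaks of under 20 tags, at 21.8 and 22.0 for TH, 23.8 and 23.5 for YH, 23.2 and 22.9 for TL, and 23.9 and 23.8 for YL at the ends and in the rest. In each higher class of tags the ends were above the rest in every list. The TH values were 28.2 and 27.0 at 20 to 39 tags, 36.4 and 34.1 at 40 to 79, and 45.3 and 41.7 at 80 or more.

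The tails of the distributions differed as well. Of the peaks at the ends 7.07% to 10.9% had under 20 tags, against 22.8% to 34.6% in the rest. At 80 or more tags the shares were 19.9% to 31.4% and 4.40% to 9.38%. Peaks of 3000 bp or more made up 8.29% to 12.8% of those at the ends and 1.89% to 3.50% of those in the rest. Among the 1000 peaks of chromosomes 1 to 12 with the most tags, 456 (TH), 428 (YH), 422 (TL) and 428 (YL) lay at the ends.

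Fold enrichment was lower at the ends. Its median was 6.43 at the ends and 8.30 in the rest in TH, 5.73 and 7.33 for YH, 5.99 and 7.89 for TL, and 5.97 and 7.51 for YL. Fold enrichment fell with tags in both regions, but the ends were lower within each of the 4 tag classes and in each list too: at 20 to 39 tags the TH medians were 7.43 and 8.52, and at 80 or more tags 5.35 and 5.73. Of the 1000 peaks with the highest fold enrichment only 80 to 100 per list lay at the ends, a share of 8% to 10% that is near the share of all peaks there. Base composition and mappability were not analysed here.

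The start and the far end of the chromosomes did not behave alike. Density over the 12 starts was 1.46 to 1.56 times that of the rest and over the 12 far ends 1.26 to 1.36 times. In TH the starts held 164 peaks per Mb and the far ends 144. Median tags were close at both sides, with 53 and 50 for TH, 54 and 53 for YH, 46 at both for TL, and 56 and 55 for YL. Each end was also set against the rest of its own chromosome, and the median over the 12 ends of the ratio of tags was 1.93, 1.93, 1.89 and 1.88 at the starts and 1.66, 1.59, 1.67 and 1.60 at the far ends in the same order of lists. Stretches of at least 50 kb without a peak of any list took up 23.0% of the starts, 31.9% of the far ends and 29.0% of the rest.

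By distance, the starts were densest at the tip. In TH they held 178 peaks per Mb in the first Mb, then 173, 163, 157 and 148 from 4 to 5 Mb. The first Mb of the starts held 189 peaks in YH, 178 in TL and 203 in YL, and in each of these lists too the bin from 4 to 5 Mb was the lowest of the 5. The mean over the far ends had another shape, with 149 peaks per Mb at the tip in TH, a dip to 121 and 130 from 1 to 3 Mb, and 156 and 165 from 3 to 5 Mb. The same dip in the mean came at the second Mb in YH (116), TL (109) and YL (133). Single far ends differed widely there. In TH the second Mb held 9 peaks on chromosomes 2 and 7, 23 on chromosome 3, 48 on chromosome 1 and 64 on chromosome 10. On the other chromosomes it held 159 to 221 peaks.

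The 5 Mb limit does not mark a border in these lists. With both sides pooled, density just inside it, from 4 to 5 Mb, was 156, 155, 143 and 179 peaks per Mb in TH, YH, TL and YL, and just outside it, from 5 to 6 Mb, 163, 161, 151 and 181. From 5 to 13 Mb the TH density stayed between 146 and 163 peaks per Mb, the range it had in the outer 5 Mb. It first fell to the level of the rest beyond 22 Mb in all 4 lists.

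**Figure D2:**
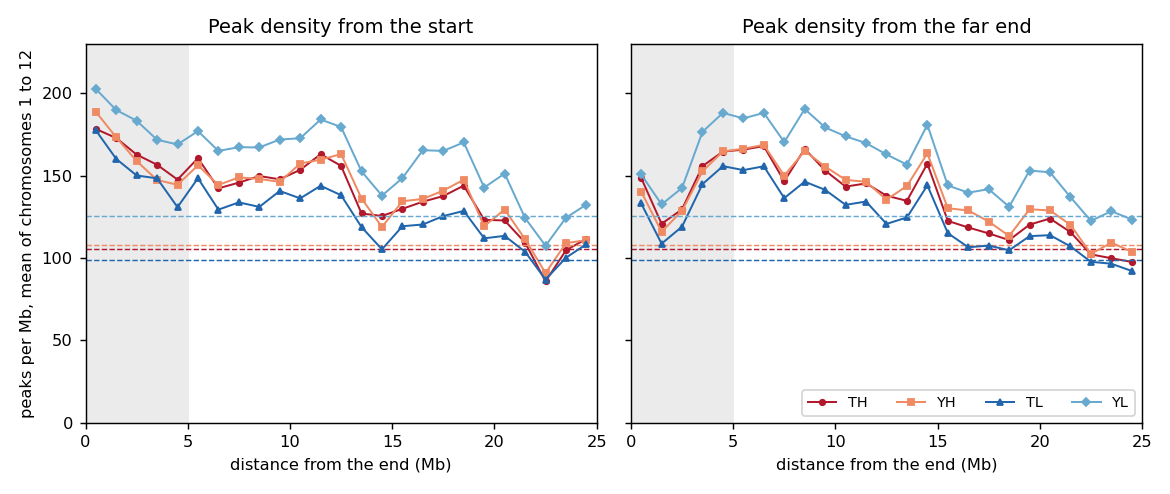
Peaks per Mb by distance from the start (left) and from the far end (right), in bins of 1 Mb averaged over chromosomes 1 to 12; dashed lines give each list's density in the rest and grey marks the outer 5 Mb. The mean of the starts falls from 178 to 148 peaks per Mb in TH over the outer 5 Mb. The mean of the far ends dips to 121 in TH in the second Mb, where the bins of chromosomes 2, 3 and 7 are the sparsest. Both means stay above the rest well beyond the grey zone.

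Tags and fold enrichment also changed with distance from the end. With both sides pooled the TH median was 48 tags in the first Mb, rose to 56 in the fourth and was 47 from 4 to 5 Mb, 38 at 9 to 10 Mb and 29 at 19 to 20 Mb. The corresponding YL medians were 52, 60, 52, 43 and 34. Median fold enrichment was lowest in the fourth Mb in each list, at 6.17, 5.48, 5.65 and 5.71 for TH, YH, TL and YL. Tags were highest in that same Mb, in YH level with the Mb before it at 58. By side the Mb of most tags varied: at the starts it was the bin from 2 to 3 Mb in YH (61), TL (49.5) and YL (62), and at the far ends the bin from 1 to 2 Mb in TH (56) and YH (58).

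**Figure D3:**
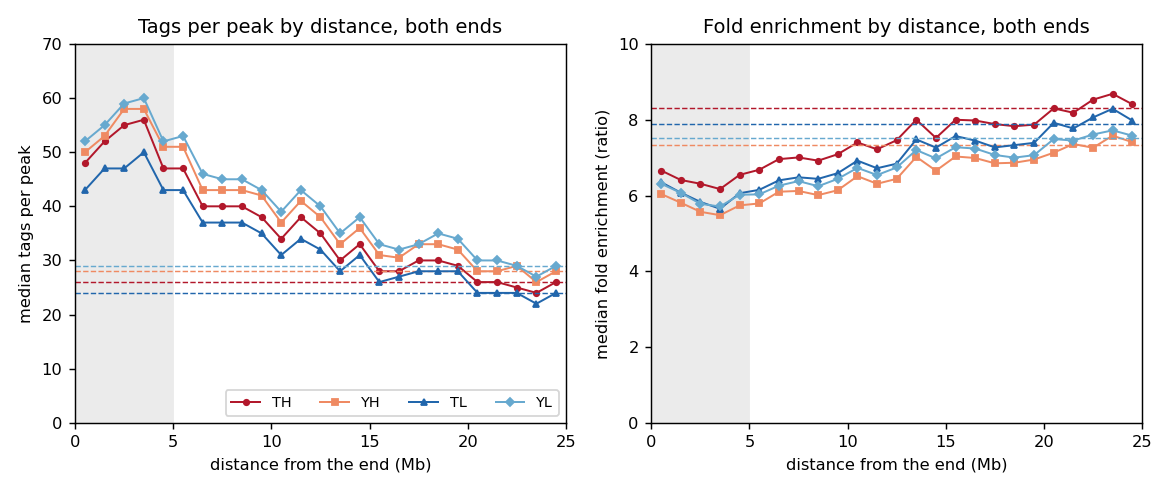
Median tags per peak (left) and median fold enrichment (right, a ratio) by distance from the nearer end, both ends of chromosomes 1 to 12 together; dashed lines are each list's medians in the rest and grey marks the outer 5 Mb. With both sides pooled, tags peak at 50 to 60 in the fourth Mb and reach the level of the rest after 20 to 22 Mb, while fold enrichment is lowest in the fourth Mb.

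Taken singly, 23 of the 24 ends gave the same answer in all lists or in all but 1 as to whether they were denser than the rest of their own chromosome, and the far end of chromosome 3 was divided. Of the 12 starts 12 were denser in YH and 11 in each of the other lists. The exception was the start of chromosome 10, with ratios of 0.945, 1.03, 0.974 and 0.980 for TH, YH, TL and YL. Of the 12 far ends only 8, 7, 8 and 7 were denser.

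The far ends of chromosomes 1, 2, 7 and 10 were sparser than the rest of their chromosome in all 4 lists. The far end of chromosome 2 was the lowest, with 52.4, 53.6, 50.4 and 62.0 peaks per Mb in TH, YH, TL and YL against 103, 103, 96.1 and 121 in its rest, ratios of 0.509 to 0.524. The far end of chromosome 10 had ratios of 0.702 to 0.744, that of chromosome 1 ratios of 0.761 to 0.865 and that of chromosome 7 ratios of 0.808 to 0.914. The far end of chromosome 3 lay near its rest, at 1.04, 0.957, 1.08 and 0.919 in TH, YH, TL and YL.

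Those sparse ends also held long stretches without peaks. Stretches of at least 50 kb without a peak of any list summed to 3.07 Mb of the 5 Mb at the far end of chromosome 1, 3.23 Mb on chromosome 2, 2.37 Mb on chromosome 7, 2.33 Mb on chromosome 10 and 2.15 Mb on chromosome 3. At the other 19 ends they summed to 0.533 to 1.62 Mb. The longest stretch, 979217 bp, ran from 77734848 to 78714064 near the far end of chromosome 10 (Sscrofa10.2). Gaps in the assembly were not analysed here.

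Both ends of chromosome 8 stood highest against their own chromosome. Its start held 188, 181, 176 and 210 peaks per Mb in TH, YH, TL and YL and its far end 191, 189, 173 and 205, against 88.0, 93.8, 86.3 and 109 in its rest. The ratios were 1.93 to 2.14 at the start and 1.88 to 2.17 at the far end. Of the 12 chromosomes only chromosome 1 was sparser in its rest. In peaks per Mb the far end of chromosome 5 was denser than either end of chromosome 8 in every list, at 205, 207, 184 and 226 peaks per Mb, with ratios of 1.76 to 1.91. The far ends of chromosomes 9 and 11 came next, with ratios of 1.67 to 1.90 and 1.72 to 1.83.

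The remaining starts filled a narrower range. Ratios were 1.64 to 1.69 on chromosome 1, 1.48 to 1.63 on chromosome 2, 1.51 to 1.59 on chromosome 3, 1.45 to 1.51 on chromosome 4 and 1.29 to 1.47 on chromosome 5. On chromosomes 6, 7, 9, 11 and 12 they were 1.39 to 1.51, 1.19 to 1.28, 1.34 to 1.53, 1.51 to 1.74 and 1.33 to 1.51. Among the remaining far ends, those of chromosomes 4, 6 and 12 had ratios of 1.44 to 1.54, 1.24 to 1.34 and 1.20 to 1.29. The lists kept close company here, since the spread of 1 end over the 4 lists was small beside the spread between ends.

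**Figure D4:**
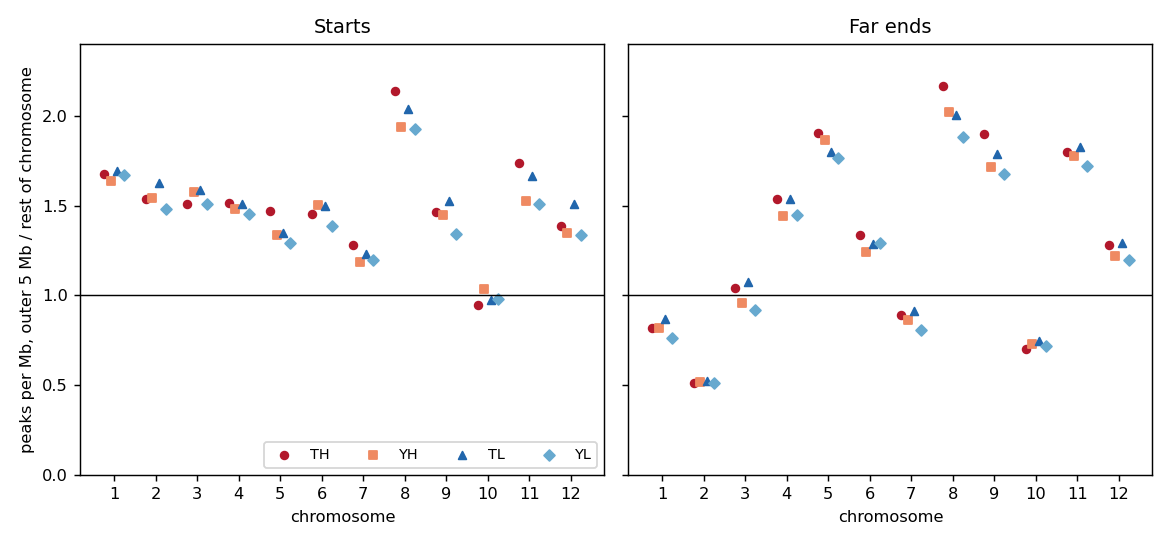
Ratio of peaks per Mb in the outer 5 Mb to peaks per Mb in the rest of the same chromosome, for the 12 starts (left) and 12 far ends (right); each marker is 1 list and the line marks a ratio of 1. The far ends of chromosomes 1, 2, 7 and 10 lie below the line in all 4 lists, and both ends of chromosome 8 lie highest, at 1.88 to 2.17.

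Tags were higher at the sparse ends as well. The median number of tags exceeded that of the own rest at all 12 far ends in every list, with ratios of 1.08 to 2.64, and at 11, 11, 12 and 11 of the 12 starts in TH, YH, TL and YL. At the far end of chromosome 2 the medians were 38, 36, 31 and 38 tags against 25, 27, 23 and 28 in its rest. The start of chromosome 7 had the highest medians, at 69, 75, 57 and 76 tags in TH, YH, TL and YL. The start of chromosome 10 again stood apart, at 34, 37, 33 and 38 tags against 34, 37, 32 and 38.

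Density by single Mb ranged widely at the ends. Over the 120 bins of 1 Mb the TH list held 9 to 250 peaks with a median of 164, YH 6 to 262 with a median of 156, TL 5 to 235 with a median of 150, and YL 8 to 274 with a median of 177. No bin was without a peak, and 101, 98, 99 and 96 bins lay above the density of the rest of their list. Summed over the 4 lists, the densest was the first Mb of chromosome 12, with 250, 235, 235 and 274 peaks in TH, YH, TL and YL.

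The next by that sum were the first Mb of chromosome 6, with 225, 262, 232 and 269 peaks, and the bin from 4 to 5 Mb at the far end of chromosome 5, with 225, 236, 212 and 270. The first Mb of chromosome 3 (210, 247, 217 and 253) and the second Mb of chromosome 12 (231, 239, 213 and 242) completed the 5 highest, so that 4 of them lay in the outer 2 Mb of a start. All 5 of the sparsest bins were at far ends. The second Mb from the far end of chromosome 2 held 9, 6, 5 and 8 peaks in TH, YH, TL and YL, and the third Mb there 16, 25, 24 and 31. The second Mb from the far end of chromosome 7 held 9, 10, 13 and 13 peaks, that of chromosome 3 held 23, 22, 13 and 21, and the first Mb from the far end of chromosome 10 held 30, 38, 36 and 38.

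On the acrocentric chromosomes 13 to 18 the contrast was found at 1 side only. Over the 6 starts the density was 0.941 to 0.983 times that of the rest of those chromosomes, and over the 6 far ends 1.67 to 1.83 times. Each of the 6 far ends was denser than its own rest in all 4 lists, whereas 2 of the starts were denser in TH and TL and 3 in YH and YL. Median tags in TH were 27 over the starts, 54 over the far ends and 23 in the rest. The single starts differed widely: in TH the median was 52 tags against 30 in the own rest on chromosome 18, where the start was 1.32 times as dense, and 17 against 28 on chromosome 17, where it was 0.351 times as dense. Which tip carries the centromere is not given in the lists.

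In every list the peak with the most tags at the ends lay on chromosome 6 between 857078 and 862051, 0.859 Mb from the start. The 4 strongest peaks there held 1816, 1449, 1416 and 1374 tags in TH and 2422, 2388, 2187 and 2052 in YH. Those of the lowland held 2355, 2284, 2168 and 1569 tags (TL) and 2350, 1751, 1742 and 1569 tags (YL). Their fold enrichment was only 5.10 to 6.90. A neighbouring stretch at 873929 to 876099 held 401 to 1263 tags per peak for TH, 831 to 2050 for YH, 622 to 1952 for TL and 1070 to 1771 for YL. The TH tags were lowest at both places, but each peak's tags depend on the depth of an animal that is not named, so the lists are not compared there.

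The highest fold enrichments came from peaks with far fewer tags. On chromosome 3 between 144113565 and 144114539, 0.673 Mb from the far end, all 4 lists had 4 peaks. Their fold enrichments were 31.4, 28.1, 27.5 and 21.9 in TH, 27.3, 24.3, 20.9 and 9.32 in TL, 26.2, 23.3, 19.3 and 17.8 in YH, and 26.7, 23.7, 23.1 and 21.0 in YL, on 13 to 72 tags. A second place, on chromosome 9 between 1183017 and 1184132, had fold enrichments of 17.6 to 27.2 for TH, 16.5 to 25.8 for YH, 22.3 to 26.5 for TL and 13.7 to 25.9 for YL.

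A further pair of places had fewer than 4 peaks in some list. On chromosome 3 between 142549901 and 142550500 the fold enrichments were 26.2 to 26.9 in TH, 13.8 to 30.7 in YH, 16.2 to 24.4 in TL and, for 3 peaks, 9.36 to 14.2 in YL. On the same chromosome between 144713280 and 144714124, 0.0734 Mb from the far end, 4 TL peaks had 16.02 to 26.6, 3 TH peaks 16.6 to 20.1 and 3 YH peaks 8.90 to 16.5, and YL had no peak. Genes at these places were not analysed here, since an annotation of Sscrofa10.2 was not used.

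Recurrence was read on a grid of 500 bp windows from the number of peaks over the middle base of a window. At the ends 21.5% of windows had a peak of some list, against 12.6% in the rest. Of the windows with a peak of a list, 7.55% at the ends had 4 peaks in TH (95% interval 7.28% to 7.84%) and 5.59% in the rest (5.50% to 5.69%). The shares were 18.1% and 12.8% for YH, 14.2% and 9.34% for TL, and 15.9% and 12.1% for YL. The ends were thus the more recurrent in every list, by ratios of 1.31 to 1.52, and the TH list had the lowest share in both regions.

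Over all lists the same held for the windows with 4 peaks in each list. At the ends 1207 of 51665 windows with a peak had 16 peaks, a share of 2.34% (95% interval 2.21% to 2.47%). In the rest the share was 1.14% (1.11% to 1.18%), from 4561 of 398440 windows. The ends held 20.9% of the 5768 such windows on chromosomes 1 to 12 with 7.05% of the grid. Windows seen once made up 27.2% of those at the ends and 33.2% of those in the rest, and windows with a peak in all 4 lists 31.7% and 23.9%. Neighbouring windows under 1 peak are not independent, so the intervals are too narrow.

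This excess of windows with 16 peaks was found at 22 of the 24 ends when each was set against its own rest. The share was highest at the far end of chromosome 1, at 5.20% of 692 windows with a peak against 1.03% in its rest. It was 4.28% at the start of chromosome 6 and 4.10% at the far end of chromosome 2, against 1.50% and 1.04%. The sparse far ends of chromosomes 1 and 2 thus had few windows with a peak but a high share of them with 16. The exceptions were the far end of chromosome 6, with 0.797% against 1.50%, and the start of chromosome 10, with 1.26% against 1.27%.

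Windows with 16 peaks formed 508 runs at the ends, of which 13.2% were 2000 bp or longer, against 6.46% of 2398 runs in the rest. The longest runs at the ends measured 3500 bp: chromosome 4 from 140334501 to 140338000, chromosome 5 from 110440501 to 110444000, chromosome 8 from 145901501 to 145905000 and chromosome 12 from 1043501 to 1047000. A run of 3000 bp lay on chromosome 1 from 314107501 to 314110500, 0.109 Mb from the last peak end. Over this last run the peaks held 96 to 360 tags for TH, 230 to 299 for YH, 151 to 324 for TL and 157 to 396 for YL, at fold enrichments of 4.08 to 6.80. It was thus a place of many tags and a fold enrichment near or below the median of the ends. The longest run in the rest was 5000 bp.

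The 4 lists also overlapped more at the ends. The Jaccard index, the bases shared by both lists divided by the bases under either, was 0.525 at the ends and 0.452 in the rest for TH and YH, and 0.523 and 0.437 for TL and YL. For the elevations it was 0.521 and 0.448 for TH and TL, and 0.577 and 0.511 for YH and YL. For the pairs that differ in both breed and elevation it was 0.545 and 0.469 for TH and YL, and 0.532 and 0.450 for YH and TL. The overlap was above that of the own rest at 24 of 24 ends in 4 of the 6 pairs and at 23 in TH with YL and YH with YL.

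Counted in peaks, 79.3% of the TH peaks at the ends overlapped a YH peak by at least 1 bp and 74.4% of those in the rest, and 87.1% and 77.8% of the YH peaks overlapped a TH peak. For TL and YL the shares were 88.0% and 80.1% of the TL peaks, and 80.8% and 72.1% of the YL peaks. The gap between ends and rest depended on tags. Among peaks of under 20 tags, and among those of 20 to 39 tags, the overlap was higher at the ends in 12 of 12 ordered pairs, by 2.29 to 8.71 and by 0.104 to 5.36 percentage points. Among peaks of 40 to 79 tags, and among those of 80 or more, it was higher at the ends in only 3 of 12 pairs each, with gaps of -2.60 to 0.793 and -1.49 to 0.535 points. Among peaks of 40 tags or more the ends were thus not the region of greater overlap in most pairs.

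**Figure D5:**
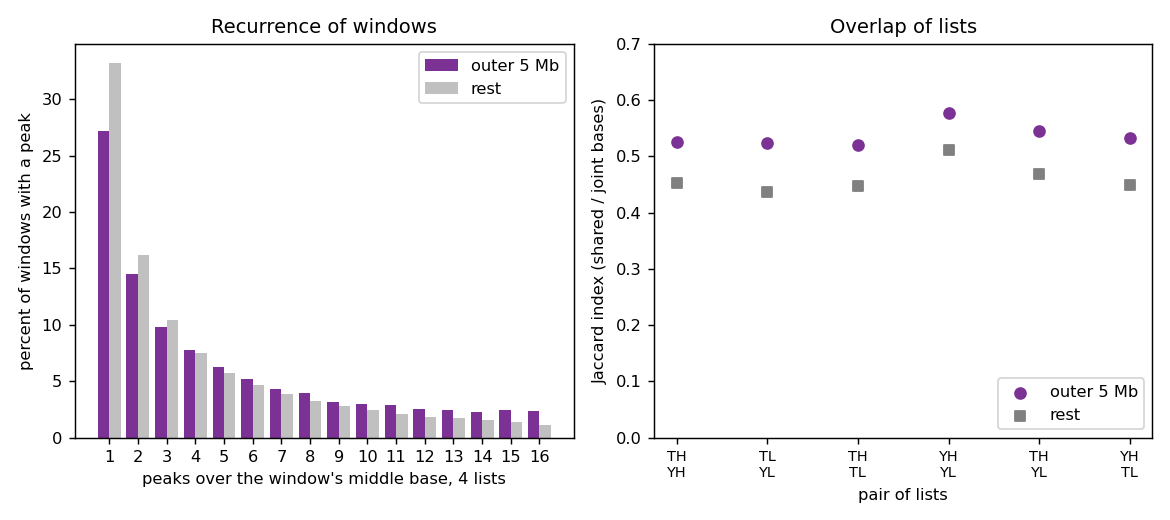
Left, windows of 500 bp by the number of peaks over the middle base in the 4 lists together (1 to 16), as a percent of windows with a peak, at the ends and in the rest of chromosomes 1 to 12; right, Jaccard index of each pair of lists in both regions. Windows with 16 peaks make up 2.34% at the ends and 1.14% in the rest, and the index is higher at the ends in all 6 pairs.

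Differences between breeds and elevations were then sought as windows with peaks of all 4 animals of 1 group and none of the other. The exact two-sided Fisher test of such a window gives p = 0.0286 before adjustment, and after Benjamini-Hochberg adjustment over all windows the smallest p was 1 in each comparison, so no single window passed. No smaller p is possible in this test with 4 animals a group, so at the low shares given next no single window could pass. Over chromosomes 1 to 18 and X, the share of tested windows with 4 against 0 was 0.474% for TH and YH (0.0982% with the 4 in TH and 0.376% with the 4 in YH) and 0.754% for TL and YL (0.0849% in TL and 0.669% in YL). It was 0.214% for TH and TL (0.103% in TH and 0.111% in TL) and 0.258% for YH and YL (0.0626% in YH and 0.196% in YL).

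At the ends such windows were no more frequent than elsewhere. Between the breeds 172 of 42707 windows tested at the ends were 4 against 0 in the highland, 0.403% (95% interval 0.347% to 0.467%) against 0.485% in the rest. In the lowland there were 282 of 41826, 0.674% (0.600% to 0.757%) against 0.786%. Between the elevations there were 61 of 41077 in Tibetan pigs, 0.149% (0.116% to 0.191%) against 0.214%, and 109 of 42070 in Yorkshire pigs, 0.259% (0.215% to 0.312%) against 0.269%. The share was lower at the ends in each of these, but only in the Tibetan comparison of elevations did the interval of the ends lie apart from that of the rest (0.198% to 0.231%). Neighbouring windows are not independent here either, so the intervals are too narrow. With at least 3 animals against 0 the share over chromosomes 1 to 18 and X was 3.16% for TH and YH, 4.19% for TL and YL, 2.38% for TH and TL, and 2.15% for YH and YL. The shares at the ends and in the rest were then 3.03% and 3.19%, 3.67% and 4.22%, 2.15% and 2.36%, and 2.25% and 2.18% in the same order, so that YH and YL turned and the ratio for TH and TL moved from 0.695 to 0.908.

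Since windows with few peaks cannot reach 4 against 0, the count was also set against the windows with 4 peaks in the 8 animals. Of these 4.30% at the ends and 5.63% in the rest were 4 against 0 for TH and YH, 6.99% and 9.09% for TL and YL, 1.61% and 2.52% for TH and TL, and 2.86% and 3.10% for YH and YL. The share was again lower at the ends, and the intervals of ends and rest lay apart in all but YH and YL. These intervals too are too narrow, because neighbouring windows under 1 peak are not independent. Among all tested windows the order depended on the length of the ends: with ends of 10 Mb the ratio of the share at the ends to that in the rest was 1.03 for TH and YH and 1.06 for YH and YL, both above 1.

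Yorkshire pigs held most of the windows that differed by breed at the ends, as they did elsewhere. The 4 peaks were in TH in 26 windows and in YH in 146, and in TL in 42 and in YL in 240. The Tibetan share was 15.1% in the highland (95% interval 10.5% to 21.2%) against 20.6% in the rest, and 14.9% in the lowland (11.2% to 19.5%) against 10.6%. By elevation, the 4 were in TH in 22 windows and in TL in 39, and in YH in 37 and in YL in 72. The highland share was 36.1% (25.2% to 48.6%) against 50.6% in the rest in Tibetan pigs, and 33.9% (25.7% to 43.2%) against 24.2% in Yorkshire pigs. In all 4 comparisons the intervals of ends and rest overlapped. At the ends the YH list had fewer peaks than the TH list but more windows with 4 peaks, 5595 against 2589, and the YL list had more than the TL list, 5638 against 4001. The part of these numbers in the directions was not tested.

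At the ends 6 windows, in 5 runs, had peaks of all Yorkshire animals and of no Tibetan animal at both elevations, against 56 in the rest. Of the windows with a peak in any list these were 0.0116% at the ends (95% interval 0.00532% to 0.0253%), 0.0141% in the rest and 0.0145% over chromosomes 1 to 18 and X, and the interval at the ends includes the other shares. None at the ends had the reverse, which allows up to 0.00743% by the Wilson interval (1 window in the rest, and 0.000468% over chromosomes 1 to 18 and X). None had peaks of all highland and no lowland animals, or the opposite, in both breeds, and both shares were 0% over chromosomes 1 to 18 and X too. The longest run was 1000 bp at chromosome 7 from 1921001 to 1922000, where the YH peaks held 49, 47, 42 and 38 tags and the YL peaks 61, 53, 48 and 48. No TH or TL peak touched that run.

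The other 4 runs were single windows. On chromosome 5 from 2260001 to 2260500 the peaks held 34, 26, 21 and 17 tags in YH and 52, 43, 42 and 15 in YL. On chromosome 10 from 2188501 to 2189000 they held 65, 63, 61 and 44 tags in YH and 69, 61, 52 and 42 in YL. Neither window was touched by a Tibetan peak. At the remaining places a Tibetan peak reached part of the window without covering its middle base: 1 TH peak of 40 tags at chromosome 7 from 4965001 to 4965500, where the YH peaks held 42 to 76 tags and the YL peaks 42 to 111, and 2 TL peaks of 37 and 36 tags at chromosome 10 from 76228501 to 76229000, where the YH peaks held 45 to 64 and the YL peaks 39 to 61. Fold enrichments of the Yorkshire peaks over the 5 runs were 3.37 to 9.12.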

How the data were processed

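Peaks were taken from 4 lists, 1 per group of 4 heart samples. Per the study's methods, the authors used FASTX to remove unsuitable reads (50 bp, single-end), Bowtie to map them (build Sscrofa10.2) and MACS to find peaks, and they deposited for each peak its position, its tags, a count without normalization, and its fold enrichment, a ratio from the caller. For 100907 TH peaks the end was read from a joint field, because its own field holds a dash. Depth per animal is not in the lists, so intervals cover counting error only.

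Chromosome lengths were the largest peak ends. The 24 ends, the bins of 1 Mb with the 5 most and 5 fewest peaks, the 3 peaks per list with most tags and with highest fold enrichment, the 5 longest runs of windows with 16 peaks and all runs of windows consistent over both breed or both elevation comparisons were named by rule. The members and lists were chosen with earlier results of these data known. Windows of 500 bp followed the grid of the study's regions, and peaks over base 250 were counted. Fisher's exact test per window was adjusted by the Benjamini-Hochberg method over all windows of chromosomes 1 to 18 and X with a peak in the pair. The 16 animals are separate per the labels, but no list names the animal of a peak. The alternatives were ends of 2 and 10 Mb, distance from the first peak, merged peaks, covered bases, at least 20 tags, equal numbers of peaks, fold enrichment at or above the median, means, other overlap rules (including 50% of both peaks), at least 3 animals against 0 and each chromosome left out. The scripts were tested on simulated data. Genes, base composition and sequences were not analysed here. Tools were SciPy 1.17.1, pandas 2.3.3, NumPy 2.4.6, Matplotlib 3.10.9 and Python 3.11.15.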

Additional observations from a re-analysis of the deposited data

How the results depend on the processing

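The ratio of peak density between ends and rest, 1.36 to 1.46 over the lists, stayed above 1 under each of these alternatives but 1: among peaks with a fold enrichment at or above the list's median it was 0.732, 0.741, 0.700 and 0.729 in TH, YH, TL and YL. By class of peak it was also below 1 in all 4 lists under 20 tags (0.410 to 0.456), under 1000 bp (0.667 to 0.715) and at a fold enrichment of 10 to under 15 (0.626 to 0.680). It lay on both sides of 1 at 20 to 39 tags (0.806 to 1.06) and at a fold enrichment of 15 or more (0.761 to 1.14). It was 1.33 at the lowest with ends of 2 Mb, 1.43 to 1.52 with 10 Mb, 1.20 to 1.32 with merged peaks, 1.81 to 2.01 in covered bases, 1.64 to 1.97 from 20 tags and 1.45 to 1.62 with equal numbers of peaks. The ratio of median tags, 1.89 to 2, became 1.76 to 1.85 with 2 Mb, 1.78 to 1.84 with 10 Mb, 1.76 to 1.85 by means and 1.52 to 1.65 from 20 tags. The ratio of median fold enrichment, 0.759 to 0.795, became 0.797 to 0.832 with 2 Mb, 0.769 at the lowest with 10 Mb, 0.814 to 0.836 by means and 0.812 to 0.827 from 20 tags. Leaving out each chromosome in turn, the lowest and highest density ratios were 1.32 to 1.40 and 1.40 to 1.51, those of tags 1.80 to 1.96 and 1.93 to 2.04, and those of fold enrichment 0.747 to 0.769 and 0.781 to 0.805. The recurrence ratio, 1.31 to 1.52, became 1.42 to 1.74 with 2 Mb, 1.26 to 1.42 with 10 Mb and 1.35 at the lowest from 20 tags. The Jaccard ratio, 1.13 to 1.20, became 1.16 to 1.23 with 2 Mb, 1.12 to 1.17 with 10 Mb and 1.13 to 1.21 with equal numbers, and as shares of peaks it was 1.06 to 1.12 at 1 bp and 1.04 to 1.11 at 50% of both peaks.

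The ratio for windows with 4 against 0, 0.695 to 0.961, fell to 0.524 at the lowest with 2 Mb and passed 1 in YH and YL with at least 3 animals against 0 (1.03, with 0.949, 0.871 and 0.908 in TH and YH, TL and YL, and TH and TL) and with 10 Mb in TH and YH (1.03) and in YH and YL (1.06). The counts in TH and YH, TL and YL, TH and TL, and YH and YL were 1292, 1537, 882 and 948 with at least 3 against 0, 62, 91, 17 and 41 with 2 Mb, and 408, 612, 119 and 236 with 10 Mb, where the tested length itself changes. The other causes were not tested. No paired analysis was possible because the lists do not name the animal of a peak, so neither the replicate block nor leaving out each replicate was run. With 4 animals a group no window can go below p = 0.0286 in Fisher's exact test, so single windows at the ends cannot pass adjustment at this size.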
